A study of Homo sapiens with 6 samples.

Results

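The respiratory chain subunits and cytochrome c were taken from the gene symbols of the 2 deposited signal tables. A symbol was a member if it began with NDUFA, NDUFB, NDUFC, NDUFS, NDUFV, UQCR, COX4 to COX8 or ATP5, or if it was SDHA, SDHB, SDHC, SDHD, CYC1 or CYCS. This gave 93 of 34690 symbols, and 80 of the 93 passed the filter on low signal, a detection p-value under 0.05 on at least 3 of the 6 arrays. Subunits of the chain made up 83 of the 93, with 37 in complex I, 4 in complex II, 8 in complex III, 18 in complex IV, 15 in complex V and cytochrome c itself. The other 10 were taken in by their first letters alone and were counted apart. They were 3 assembly factors of complex I, 3 near copies (UQCRHL, COX6BP1 and ATP5EP2) and 4 other genes, among them COX4NB, which is now called EMC8 and encodes a protein of the endoplasmic reticulum membrane. NDUFA4 was counted with complex IV, where its product resides in spite of its name. Symbols are printed as the tables give them, and several have since been renamed, such as those that begin with ATP5.

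RNA was labelled as coming from SNU761, an established cell line from hepatocellular carcinoma, and was read on Illumina BeadChip arrays. The 3 control arrays carried RNA of cells given the vehicle DMSO for 24 h. The 3 sorafenib arrays carried RNA of cells given sorafenib, a multikinase inhibitor, for 24 h at 3 mM as labelled, a dose whose unit is uncertain because millimolar doses are far above those usual in culture. All 6 samples are labelled with the same line and no genotype change. The labels do not say whether arrays of a group came from separate cultures, so the p-values measure only the spread between these samples, which may be technical. In cells of a culture, a lower signal cannot be told apart from fewer cells that carry the transcript.

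The chain is a row of protein complexes in the inner mitochondrial membrane. Complexes I and II pass electrons from NADH and succinate to coenzyme Q, complex III hands them to the small carrier cytochrome c, and complex IV passes them to oxygen, while complex V uses the proton gradient to make ATP. Most subunits are encoded in the nucleus and the rest in mitochondrial DNA, and the latter are not analysed here. Cytochrome c also has a part in cell death, since its release from mitochondria starts the activation of caspases.

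Nuclear genes of the chain are known for promoters that bind NRF-1 and GABP, also called NRF-2. Promoter sequences were taken from RefSeq on GRCh38.p14 for 67 of the 83 subunits, and the 250 bases before each transcription start were searched on both strands. The NRF-1 letters GCGCANGCG were found in 29.9% of the subunits' windows against 6.56% of all 35116 windows in the table. The GABP letters CCGGAAG were found in 23.9% against 8.52%. At least 1 of 4 motifs, which also included the ERR letters TCAAGGTCA and the YY1 letters AANATGGCG, was found in 49.3% against 15.2%. The ERR letters were in 0 of the 67 windows and in 0.319% of all, and the YY1 letters in 2.99% against 1.38%. In complex I, 25.0% of 32 windows held the NRF-1 letters and 15.6% the GABP letters. Each subunit had 1 window, while the comparison took every window in the table, not matched by type of gene or by level. A match is a description of these letters and not a binding site. The windows of 4 members are shown: the subunit gene that differed most after sorafenib (CYCS), the one with the largest difference upward (NDUFS4), and the 2 genes of complex II whose windows hold the NRF-1 letters. They run 5′ to 3′ along each gene's own strand, with motif matches in capitals.
CYCS, chr7:25125261-25125510, minus strand: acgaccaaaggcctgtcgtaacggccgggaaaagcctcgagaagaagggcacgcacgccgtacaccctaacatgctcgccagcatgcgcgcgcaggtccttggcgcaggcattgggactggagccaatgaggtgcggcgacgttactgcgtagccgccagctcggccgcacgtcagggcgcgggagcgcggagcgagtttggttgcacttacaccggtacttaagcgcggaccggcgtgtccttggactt
NDUFS4, chr5:53560389-53560638, plus strand: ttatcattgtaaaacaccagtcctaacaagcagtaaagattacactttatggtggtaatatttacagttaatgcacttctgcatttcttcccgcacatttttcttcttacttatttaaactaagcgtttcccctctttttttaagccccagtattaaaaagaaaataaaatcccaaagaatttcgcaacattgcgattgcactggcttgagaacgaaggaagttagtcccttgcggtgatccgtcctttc
SDHA, chr5:218070-218319, plus strand: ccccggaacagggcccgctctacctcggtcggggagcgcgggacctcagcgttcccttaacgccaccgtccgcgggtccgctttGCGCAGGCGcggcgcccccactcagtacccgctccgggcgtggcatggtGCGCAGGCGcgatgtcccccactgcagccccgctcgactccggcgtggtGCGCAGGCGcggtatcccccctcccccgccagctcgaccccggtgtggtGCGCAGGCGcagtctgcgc
SDHD, chr11:112086623-112086872, plus strand: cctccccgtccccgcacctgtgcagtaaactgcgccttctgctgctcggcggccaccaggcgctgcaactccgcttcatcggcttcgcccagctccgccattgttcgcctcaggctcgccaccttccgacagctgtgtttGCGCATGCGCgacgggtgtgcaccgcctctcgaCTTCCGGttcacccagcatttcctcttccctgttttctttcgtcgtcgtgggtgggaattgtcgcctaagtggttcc
The SDHA window held the NRF-1 letters 4 times, beginning 166, 117, 68 and 19 bases before the start, so that successive matches lay 49 bases apart. In the SDHD window the NRF-1 letters matched on each strand of 1 palindrome, at 110 and 109 bases, and the GABP letters lay at 77 bases. The CYCS and NDUFS4 windows held none of the 4 motifs as spelled here, which says only that these letters are not in those windows.

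Before the results, one feature of the arrays bears on all of them. The control and the sorafenib array of one number were alike, and arrays numbered 3 stood apart from the other 4. Of 10 hepatocyte markers, 10 were detected on each of the other 4 arrays and 5 on each array numbered 3, where APOA1, APOA2, TTR, GPC3 and AHSG were not detected. AFP and TF were detected there at lower levels. ALB and SERPINA1 were exceptions, with higher signals on the arrays numbered 3. SERPINA1 was at log2 levels of 13.51 and 13.63 there, against 12.57 to 13.37 on the others. FGB did not stand apart, at 12.09 and 12.33 against 11.96 to 12.65. The 5 undetected markers are at odds with the single line named for all 6 arrays. Whether the arrays numbered 3 hold RNA of the same cells was not tested, so a mean and SD over 3 pairs may not describe like samples. Of 7 fibroblast or stellate cell markers, 4 to 6 were detected per array, of 5 endothelial markers 0 to 1, and of 7 immune markers 2 to 4, while PTPRC and CD3E were not detected on any array. The summed signal of the fibroblast markers was 7919 to 9160 intensity units on the arrays numbered 3 and 1319 to 1830 on the others. That of the immune markers was 21409 to 27387 against 2021 to 2377, and that of the endothelial markers was 622 to 667 against 819 to 1319. The part of other cell types in the results was not tested. Each value is therefore given within its pair, meaning the 2 arrays that share a number, and calls are given with and without pair 3. A value with ± is the mean and SD over the 3 pairs of the log2 difference, sorafenib minus control, and levels are log2 signals after background correction and quantile normalization.

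Most subunits of the chain differed little between sorafenib and control. The median of the absolute mean difference was 0.12 over the 72 tested subunits and 0.22 over all 14641 tested symbols. Subunits were bright, with a median level of 12.33 against 8.34 over all tested symbols, and bright symbols varied less. Among tested symbols with a mean level of at least 12, a cut set after the values were seen, the median absolute difference was 0.09 for 45 subunits and 0.17 for 1264 symbols in all. A mean difference beyond 0.5 in either direction was reached by 2 of 72 subunits, CYCS and ATP5G1, which is 2.78% against 16.8% of all tested symbols.

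Across the 72 tested subunits, 23 were lower in all 3 pairs, which is 31.9%, while 22.2% of all tested symbols did the same. Another 12 were higher in all 3 pairs, which is 16.7% against 21.5% of all, and 37 were mixed. The median difference over the subunits was -0.04, with -0.07, -0.0045 and -0.03 in pairs 1, 2 and 3. Over all tested symbols the median was -0.00042. Without pair 3, 31 subunits were lower and 18 higher in both remaining pairs, against 32.6% and 32.9% of all tested symbols, or 43.1% and 25.0% of the subunits. At a mean level of at least 12, all 3 pairs pointed down for 28.9% of the 45 subunits and 25.2% of the 1264 symbols. They pointed up for 9 of these 45 subunits and for 28.9% of these symbols. The excess of lower subunits was thus smaller among bright symbols, and it was not tested.

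**Figure D1:**
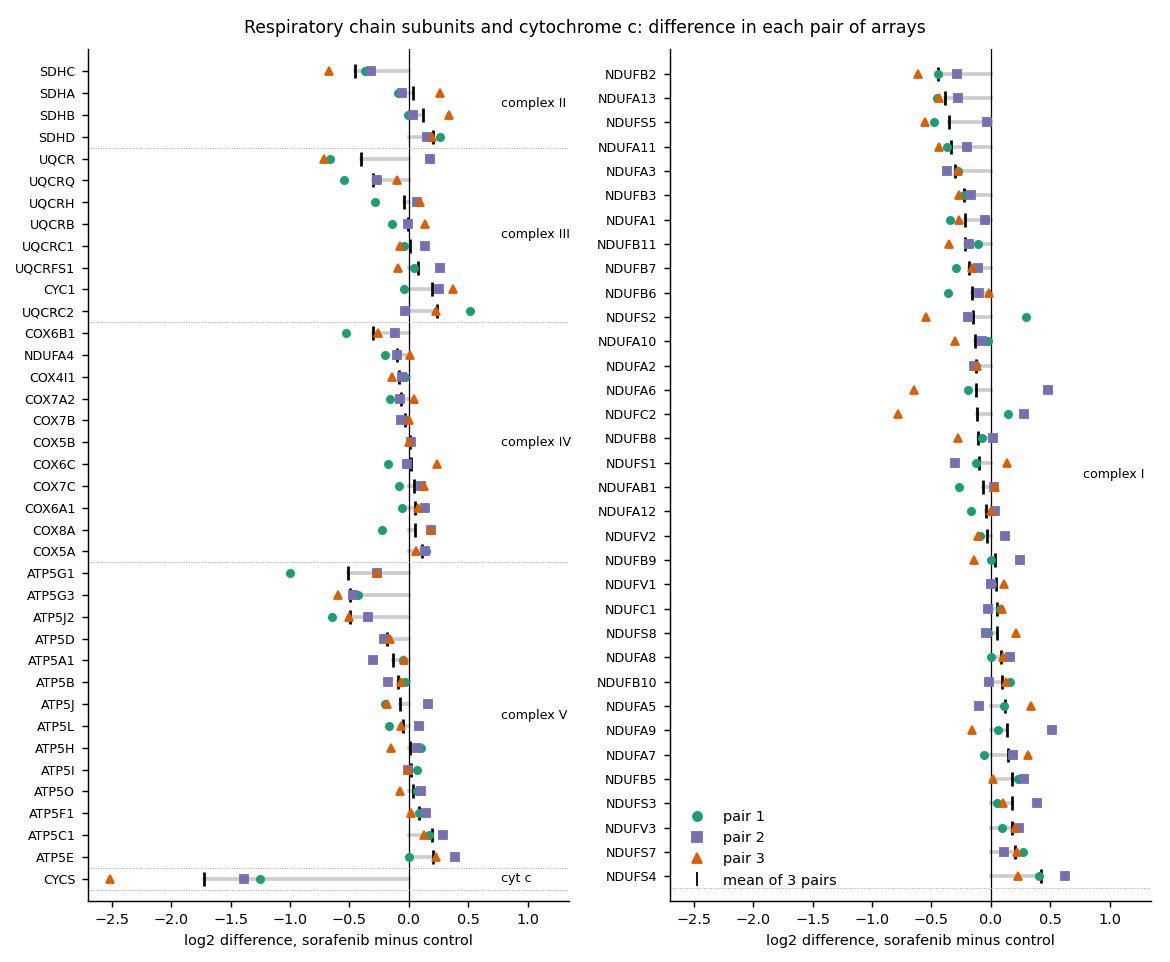
Log2 difference, sorafenib minus control, of each of the 72 tested subunits in pairs 1, 2 and 3 (coloured points), with the mean of the 3 pairs as a black tick and a grey line from 0. Complex I is on the right and the other complexes and cytochrome c on the left, each ordered by the mean, and CYCS lies apart from the rest at -1.26, -1.39 and -2.52.

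Gene by gene, limma compared the groups over all 14641 tested symbols, with Benjamini-Hochberg adjustment and a threshold of 0.05. The fit with the group alone called 0 of 80 tested members and 0% of all symbols, with 1 member and 310 symbols at an unadjusted p under 0.05. With the replicate number as a block, limma also called 0 members and 0% of all symbols, with 8 members and 2777 symbols at an unadjusted p under 0.05. A limma fit with the block, a variance trend and robust estimation, here the paired trended fit, was used for exploration. It called 1 member, CYCS, as lower, where 0.458% of all symbols were called lower, and 0 members as higher, where 0.505% were. In it 13 of 80 members and 2920 of 14641 symbols had an unadjusted p under 0.05. Without pair 3 the paired trended fit called 4 members, namely CYCS, ATP5G1 and ATP5J2 as lower and NDUFS4 as higher, or 5.0% of 80, while it called 9.39% of all symbols in either direction. Without pair 1 or without pair 2 it called 0 members, with 49 and 1 symbols called in all. At an unadjusted p under 0.05 it then had 3 and 11 members, beside 1897 and 2018 symbols in all.

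Some members had groups that did not overlap, so that every sorafenib array lay on one side of every control array. CYCS, NDUFA1, SDHC and COX4I1 were lower in this way, 4 of 80 members or 5.0%, against 3.25% of all tested symbols. None was higher in this way (0 of 80), against 3.22% of all.

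Cytochrome c, encoded by CYCS, carries electrons from complex III to complex IV. Its log2 level was 8.05, 7.74 and 8.33 on control arrays 1, 2 and 3 and 6.79, 6.35 and 5.81 on the sorafenib arrays. All 3 sorafenib arrays were below all 3 control arrays, and the difference was -1.26, -1.39 and -2.52 in pairs 1, 2 and 3. CYCS fell by 1.72 on the log2 scale in the paired trended fit of limma (SE 0.28, adjusted p = 0.0409), with an SD over pairs of 0.69. Limma's adjusted p for CYCS was 1.00 in the fit with the group alone and 0.101 with the block. Without pair 1, pair 2 or pair 3 the paired trended fit gave an adjusted p of 0.0568, 0.115 and 0.00258.

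The size of the CYCS difference depended on the background. Before any correction its signal was 398, 334 and 445 intensity units on control arrays 1, 2 and 3, and 217, 198 and 176 on the sorafenib arrays. Background was estimated at a mean of 112 to 139 units per array and an SD of 20.1 to 31.8. CYCS was detected on 3 of 3 control arrays and on 2 of 3 sorafenib arrays, the exception being the sorafenib array numbered 3. Without background correction the mean difference was -0.96. A background estimated from all symbols, instead of the 27247 that behave as single probes, is here the all-symbol background. With it the mean difference was -0.14, and the paired trended fit gave an adjusted p of 0.130 and called 0 of all symbols. In every pair and under each of the 3 treatments of background the sorafenib array was the lower one. The treatments start from the same signals of the 6 arrays, so their shared direction is not separate support. Human cytochrome c has many processed pseudogenes, and which probe stands behind the symbol is not given in the sources used here, so the signal of a near copy cannot be told apart from that of the gene.

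**Figure D2:**
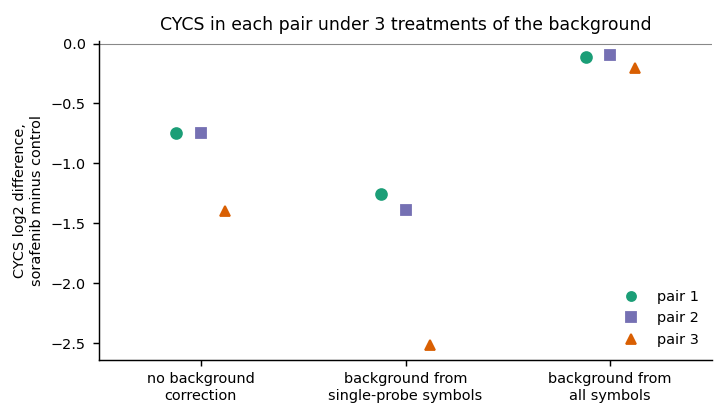
Log2 difference of CYCS, sorafenib minus control, in pairs 1, 2 and 3 without background correction, with the background estimated from symbols that behave as single probes (the setting used in the text) and under the all-symbol background. All 9 points, which come from the same 3 pairs of signals, lie below 0, with means of -0.96, -1.72 and -0.14.

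HCCS, the enzyme that attaches heme to cytochrome c and to cytochrome c1, was also lower in each pair. Its level was 9.47, 9.68 and 9.44 on control arrays 1, 2 and 3 and 9.03, 9.41 and 8.98 on the sorafenib arrays. The groups did not overlap, the difference was -0.39 ± 0.10, and HCCS did not pass the paired trended fit of limma (adjusted p = 0.258). Its mean was -0.15 under the all-symbol background. CYC1, the cytochrome c1 of complex III that passes electrons to cytochrome c, was at 12.69, 12.37 and 11.75 on control arrays 1, 2 and 3 and 12.65, 12.63 and 12.12 on the sorafenib arrays. Its pairs were mixed and its difference was 0.20 ± 0.21. Among 9 tested genes of cytochrome c attachment and caspase activation, 0 were called in either direction by the paired trended fit, and their median difference was -0.15. Every pair pointed up for 2 of the 9 and down for 1, HCCS. Groups apart and higher were seen for 2 of the 9, or 22.2%, against 3.22% of all tested symbols. Groups apart and lower were seen for 1, or 11.1%, against 3.25%. APAF1, the scaffold that binds released cytochrome c, was mixed at -0.20 ± 0.45.

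Complex I, the entry point for electrons from NADH, had 34 tested subunits with a median difference of -0.08. The median was -0.07, -0.02 and -0.11 in pairs 1, 2 and 3, and without pair 3 it was -0.0094. In complex I, every pair pointed down for 12 subunits, or 35.3%, and up for 6, or 17.6%. None of the 34 was called by the fits on all 6 arrays. In the paired trended fit 6 had an unadjusted p under 0.05, as had 2920 of all 14641 tested symbols.

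Core and accessory subunits of complex I are listed apart, a split that was made with the values known. The core subunits, among them those that hold the flavin and the iron-sulfur clusters, had a median of 0.04, and every pair pointed down for 0 of 7 and up for 3 of 7. Accessory subunits surround that core and help its assembly and stability. They had a median of -0.12, with 12 of 27 lower and 3 of 27 higher. Within the accessory subunits, 6 of 13 with NDUFA names and 5 of 9 with NDUFB names were lower in all pairs, and 0 and 1 were higher. The difference between core and accessory subunits was not tested.

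NDUFB2, an accessory subunit of the membrane arm, had the lowest mean difference in complex I. Its level was 13.26, 13.02 and 12.39 on control arrays 1, 2 and 3 and 12.82, 12.74 and 11.77 on the sorafenib arrays. Each sorafenib array was below its own control, while the groups overlapped, and the difference of -0.45 ± 0.17 did not pass (adjusted p = 0.0958 in limma's paired trended fit). NDUFA13, also known as GRIM-19, is an accessory subunit that has been linked to cell death by interferon and retinoic acid. It was at 12.58, 12.09 and 10.95 on control arrays 1, 2 and 3 and 12.13, 11.81 and 10.51 on the sorafenib arrays. Its differences lay close together, at -0.39 ± 0.10, although both arrays numbered 3 were the lowest of their groups.

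NDUFS5, an accessory subunit on the intermembrane face, was at 13.74, 13.45 and 13.04 on control arrays 1, 2 and 3 and 13.26, 13.42 and 12.48 on the sorafenib arrays. The difference was -0.36 ± 0.28, and pair 2 contributed least to it. NDUFA11 and NDUFA3, accessory subunits of the membrane arm, were lower in each pair at -0.33 ± 0.12 and -0.31 ± 0.06. NDUFA1, a small membrane subunit, was at 13.04, 12.86 and 13.12 on control arrays 1, 2 and 3 and 12.69, 12.81 and 12.85 on the sorafenib arrays. Its sorafenib arrays all lay below its control arrays, by a narrow margin, with a difference of -0.22 ± 0.15.

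NDUFS4, an accessory subunit needed for late assembly of complex I and mutated in Leigh syndrome, had the largest difference upward of any subunit. Its level was 12.48, 11.90 and 11.96 on control arrays 1, 2 and 3 and 12.89, 12.52 and 12.20 on the sorafenib arrays. Each sorafenib array was above its control and the groups overlapped, with a difference of 0.42 ± 0.20. It did not pass over all 6 arrays (adjusted p = 0.128 in limma's paired trended fit) and passed without pair 3 (adjusted p = 0.0289). NDUFS7, a core subunit with the iron-sulfur cluster next to the coenzyme Q site, was at 12.75, 12.06 and 11.83 on control arrays 1, 2 and 3 and 13.02, 12.17 and 12.05 on the sorafenib arrays. Its difference was 0.20 ± 0.08, higher in each pair. NDUFV3 and NDUFS3 were likewise higher in each pair, at 0.18 ± 0.08 and 0.18 ± 0.18, and the mean of NDUFV3 was 0.0098 under the all-symbol background.

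Of the 13 members that were not tested, 3 were complex I subunits. NDUFB1, NDUFB4 and NDUFS6, together with the pseudogene COX6BP1, had log2 levels from 4.75 to 5.87 over the 6 arrays, near those of symbols at background. NDUFAF3, an assembly factor of complex I, was bright on every array, from 11.61 to 12.38, but did not pass on its detection p-values, and its difference was mixed at 0.03 ± 0.15. The other 8 were ATP5G2 and the tissue isoforms of complex IV, which are given with their complexes. The remaining assembly factors NDUFAF1 and NDUFAF2 were at -0.25 ± 0.57, mixed over pairs, and at 0.26 ± 0.30, higher in each.

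Complex II, succinate dehydrogenase, links the chain to the tricarboxylic acid cycle, and all 4 of its subunits were tested. Its 2 membrane anchors differed in sign, a contrast that was not tested. SDHC was at 11.01, 10.74 and 11.03 on control arrays 1, 2 and 3 and 10.64, 10.42 and 10.37 on the sorafenib arrays. All sorafenib arrays lay below all control arrays, and the difference of -0.45 ± 0.19 did not pass (adjusted p = 0.170 in limma's paired trended fit). SDHC had nearly the same level on arrays numbered 3 as on the others, with a shift of -0.00075.

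SDHD, the other anchor, was at 11.41, 11.78 and 9.96 on control arrays 1, 2 and 3 and 11.68, 11.93 and 10.15 on the sorafenib arrays. It was higher in each pair by 0.20 ± 0.06, but its arrays numbered 3 were the lowest, with a shift of -1.64, and the groups overlapped. SDHA, the flavoprotein that oxidises succinate, was at 11.42, 11.22 and 9.94 on control arrays 1, 2 and 3 and 11.33, 11.16 and 10.20 on the sorafenib arrays. Its difference was negative in pairs 1 and 2 and positive in pair 3, at 0.04 ± 0.19. SDHB, the iron-sulfur subunit, was at 13.48, 13.03 and 12.95 on control arrays 1, 2 and 3 and 13.47, 13.07 and 13.30 on the sorafenib arrays. It was mixed as well, at 0.12 ± 0.19. The median over complex II was 0.08, from -0.05 and -0.01 in pairs 1 and 2 and 0.23 in pair 3.

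Complex III, which moves electrons from coenzyme Q to cytochrome c, had 8 tested subunits and a median difference of 0.0025. Its median was -0.09, 0.10 and 0.01 in pairs 1, 2 and 3, and every pair pointed down for 1 of 8 and up for 0. UQCRQ, a small accessory subunit, was the one lower in each pair. Its level was 13.21, 13.22 and 13.97 on control arrays 1, 2 and 3 and 12.67, 12.95 and 13.88 on the sorafenib arrays. The difference was -0.30 ± 0.22, and its arrays numbered 3 were the highest of their groups. UQCR, another small accessory subunit, had the lowest mean of complex III at -0.40 ± 0.50, with pair 2 in the opposite direction, and its mean was -0.064 under the all-symbol background. The Rieske protein UQCRFS1 and the core proteins UQCRC1 and UQCRC2 were mixed, at 0.07 ± 0.18, 0.01 ± 0.11 and 0.24 ± 0.27. UQCRH and its near copy UQCRHL, which a probe may not tell apart, were at -0.04 ± 0.21 and 0.07 ± 0.05.

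Complex IV, cytochrome c oxidase, takes electrons from cytochrome c, and its subunits lay closest to 0. The 11 tested subunits had a median difference of 0.01 and a median absolute difference of 0.05. The median was -0.08, -0.02 and 0.04 in pairs 1, 2 and 3, with 2 of 11 below their control in every pair and 2 of 11 above it.

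COX6B1, a subunit that faces cytochrome c, had the lowest mean in complex IV. Its level was 11.69, 12.01 and 12.14 on control arrays 1, 2 and 3 and 11.17, 11.90 and 11.88 on the sorafenib arrays. Each sorafenib array was below its control and the groups overlapped, with a difference of -0.30 ± 0.21. COX4I1, the common form of a subunit with a role in regulating the enzyme, was at 14.86, 14.84 and 14.97 on control arrays 1, 2 and 3 and 14.83, 14.78 and 14.83 on the sorafenib arrays. All sorafenib arrays were below all control arrays, yet the difference was small, at -0.08 ± 0.06. COX5A was at 14.55, 14.50 and 13.34 on control arrays 1, 2 and 3 and 14.70, 14.64 and 13.41 on the sorafenib arrays, and it was higher in each pair by 0.11 ± 0.04. COX5B, the zinc-binding subunit, was higher in each pair by 0.01 ± 0.01, a direction that turned with median scaling, which gave a mean of -0.0049. COX6A1, COX7A2, COX8A and NDUFA4 were mixed, at 0.05 ± 0.10, -0.06 ± 0.10, 0.05 ± 0.24 and -0.10 ± 0.11.

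Tissue isoforms of complex IV did not pass the filter. COX4I2, COX6A2, COX6B2, COX7A1, COX8C and NDUFA4L2, which are known from lung, muscle, testis or hypoxic cells, had log2 levels from 4.82 to 5.66 over the 6 arrays. COX7B2, known from testis and from some tumours, was an exception. Its signal was 91.6, 90.5 and 854 intensity units on control arrays 1, 2 and 3 and 93.1, 88.5 and 513 on the sorafenib arrays. It was detected on both arrays numbered 3 and on 0 of the other 4, so it failed the filter on detection and was not tested. COX7A2L, a factor that joins complexes III and IV into supercomplexes and no subunit of the enzyme itself, was higher in each pair by 0.26 ± 0.17 (adjusted p = 0.245 in limma's paired trended fit).

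Complex V, the ATP synthase, had 14 tested subunits with a median difference of -0.06. The median was -0.04, 0.03 and -0.07 in pairs 1, 2 and 3, with 6 of 14 below their control in every pair and 3 of 14 above it. Its lower members included 2 genes of the rotor. The c ring of the rotor is made of one protein encoded by ATP5G1, ATP5G2 and ATP5G3, which differ in their import signals.

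ATP5G1 was at 11.81, 11.16 and 10.17 on control arrays 1, 2 and 3 and 10.81, 10.89 and 9.91 on the sorafenib arrays. Each sorafenib array was below its control, with most of the difference in pair 1 (-1.003, against -0.27 in each of the other pairs), and the mean was -0.51 ± 0.42. It did not pass over all 6 arrays (adjusted p = 0.186 in limma's paired trended fit) and passed without pair 3 (adjusted p = 0.0429). ATP5G3 was at 9.62, 9.23 and 7.12 on control arrays 1, 2 and 3 and 9.19, 8.76 and 6.53 on the sorafenib arrays. Its differences were even over pairs, at -0.50 ± 0.09 (adjusted p = 0.189), and its arrays numbered 3 lay apart from the rest by a shift of -2.37. Under the all-symbol background the mean of ATP5G3 was -0.12. ATP5G2 was not tested. Its level was 12.53, 12.05 and 10.86 on control arrays 1, 2 and 3 and 12.58, 12.39 and 11.06 on the sorafenib arrays, bright on every array, but its detection p-values did not pass the filter, and it was higher in each pair by 0.19 ± 0.15.

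ATP5J2, the f subunit in the membrane part of the synthase, was at 13.50, 13.50 and 12.86 on control arrays 1, 2 and 3 and 12.85, 13.15 and 12.36 on the sorafenib arrays. Each sorafenib array was below its control and the groups overlapped, with a difference of -0.50 ± 0.15. It did not pass over all 6 arrays (adjusted p = 0.0670 in limma's paired trended fit) and passed without pair 3 (adjusted p = 0.0112). In the F1 head, where ATP is made, the catalytic subunit ATP5B was lower in each pair by small values, at -0.09 ± 0.07, as were ATP5A1 at -0.13 ± 0.15 and ATP5D at -0.19 ± 0.03.

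ATP5C1, the central stalk subunit gamma, was at 12.09, 12.22 and 12.53 on control arrays 1, 2 and 3 and 12.26, 12.51 and 12.66 on the sorafenib arrays. It was higher in each pair, at 0.20 ± 0.08. ATP5E was at 0.21 ± 0.19, higher in each pair and with a mean of 0.089 under the all-symbol background, while its near copy ATP5EP2, which a probe may not tell apart, was lower in each pair at -0.06 ± 0.05. ATP5F1, subunit b of the peripheral stalk, was at 0.08 ± 0.06. None of the 14 was called on all 6 arrays.

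**Figure D3:**
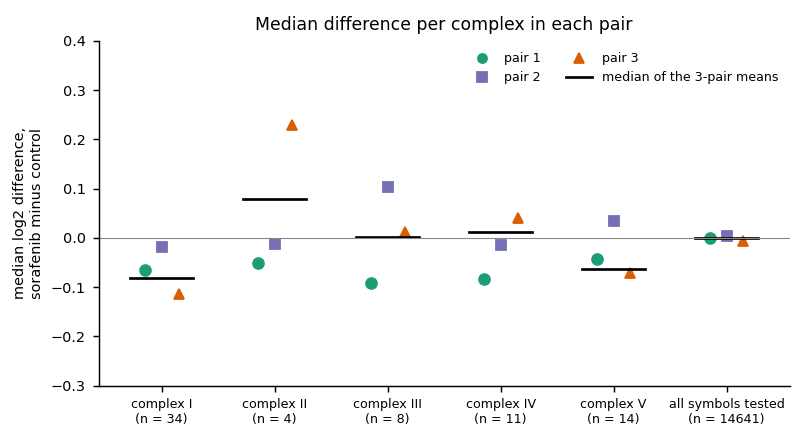
Median log2 difference, sorafenib minus control, over the tested subunits of each complex in pairs 1, 2 and 3 (points), with the median of the 3-pair means as a black line, and the same over all 14641 tested symbols. The complex medians lie between -0.08 and 0.08, and for complexes II to V the pairs fall on both sides of 0.

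Medians this close to 0 changed sign with the processing. With array weights the median was -0.027 in complex II and -0.047 in complex IV, and with median scaling in place of quantile normalization it was -0.023 in complex III and -0.018 in complex IV. Without the detection filter it was -0.0050 in complex IV. Complexes I and V stayed below 0 in these settings.

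Differences between replicate numbers were larger than those between sorafenib and control. The level on arrays numbered 3 minus that on the other arrays had a median absolute value of 0.55 over the 72 tested subunits, beside 0.12 for sorafenib. Over all tested symbols it was 0.62. This shift was beyond 1 on the log2 scale for 14 of 72 subunits, or 19.4%, against 31.9% of all tested symbols. Its median was -0.39 over the subunits and -0.01 over all tested symbols. ATP5G3 had a shift of -2.37, ATP5L, a membrane subunit of the synthase, -1.92, and UQCR -1.85. UQCRC2 and NDUFA10 lay at the other end, with shifts of 1.17 and 1.21. CYCS, the subunit that differed most with sorafenib, had a shift of -0.16.

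**Figure D4:**
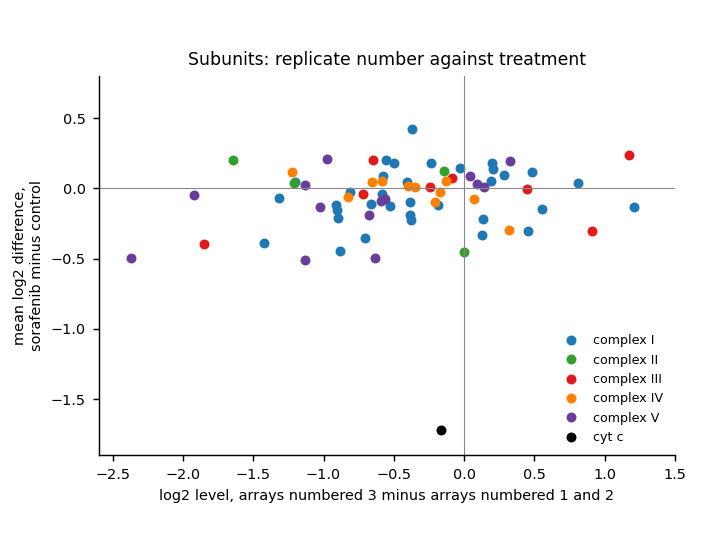
Each point is a tested subunit, coloured by complex. The horizontal axis is its log2 level on arrays numbered 3 minus that on arrays numbered 1 and 2, and the vertical axis is its mean log2 difference, sorafenib minus control. The points spread more along the horizontal axis, and CYCS lies alone at -1.72 on the vertical axis.

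Genes that build, supply or regulate the chain were followed in 11 lists. The names of the mitochondrially encoded list matched 0 symbols, and the remaining 10 lists held 84 tested symbols that are not members. Their median difference was 0.05, and every pair pointed down for 17 and up for 18, or 20.2% and 21.4%, against 22.2% and 21.5% of all tested symbols. The paired trended fit of limma called 1 of the 84 as higher and 0 as lower. In it 17 of the 84 had an unadjusted p under 0.05, as had 2920 of all 14641 tested symbols. The fits with the group alone and with the block called 0. They had 2 and 16 at an unadjusted p under 0.05, beside 310 and 2777 of all tested symbols. Without pair 3 the paired trended fit called 8 as higher and 1 as lower, or 10.7% of the 84, against 9.39% of all tested symbols.

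The called gene was COX10, which makes the heme O from which the heme A of complex IV is formed. Its level was 10.89, 10.52 and 10.53 on control arrays 1, 2 and 3 and 11.52, 11.67 and 11.45 on the sorafenib arrays. All sorafenib arrays lay above all control arrays, and COX10 rose by 0.90 ± 0.26 (adjusted p = 0.0462 in limma's paired trended fit). It did not pass without pair 1 (adjusted p = 0.0939) or without pair 2 (0.178), and it passed without pair 3 (0.00302). Under the all-symbol background its mean was larger, at 1.18. The paired trended fit then gave an adjusted p of 0.129, with 0 of all symbols called.

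COX11, which delivers copper to complex IV, was at 7.55, 7.50 and 5.31 on control arrays 1, 2 and 3 and 8.49, 8.62 and 6.24 on the sorafenib arrays. Its pairs lay close together, at 0.99 ± 0.11, with both arrays numbered 3 below the rest, and it did not pass (adjusted p = 0.0597 in limma's paired trended fit). It passed without pair 3 (adjusted p = 0.0123). COX11 was not detected on the control array numbered 3, so its value in pair 3 rests on a signal at background. Under the all-symbol background its mean was 0.11. Of the 13 tested genes of complex IV assembly, 3 were higher in all pairs (COX10, COX11 and COX15) and 5 were lower, and the list's median was -0.08. COX15, which completes heme A, was at 0.32 ± 0.15, and at a mean of 0.089 under the all-symbol background.

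**Figure D5:**
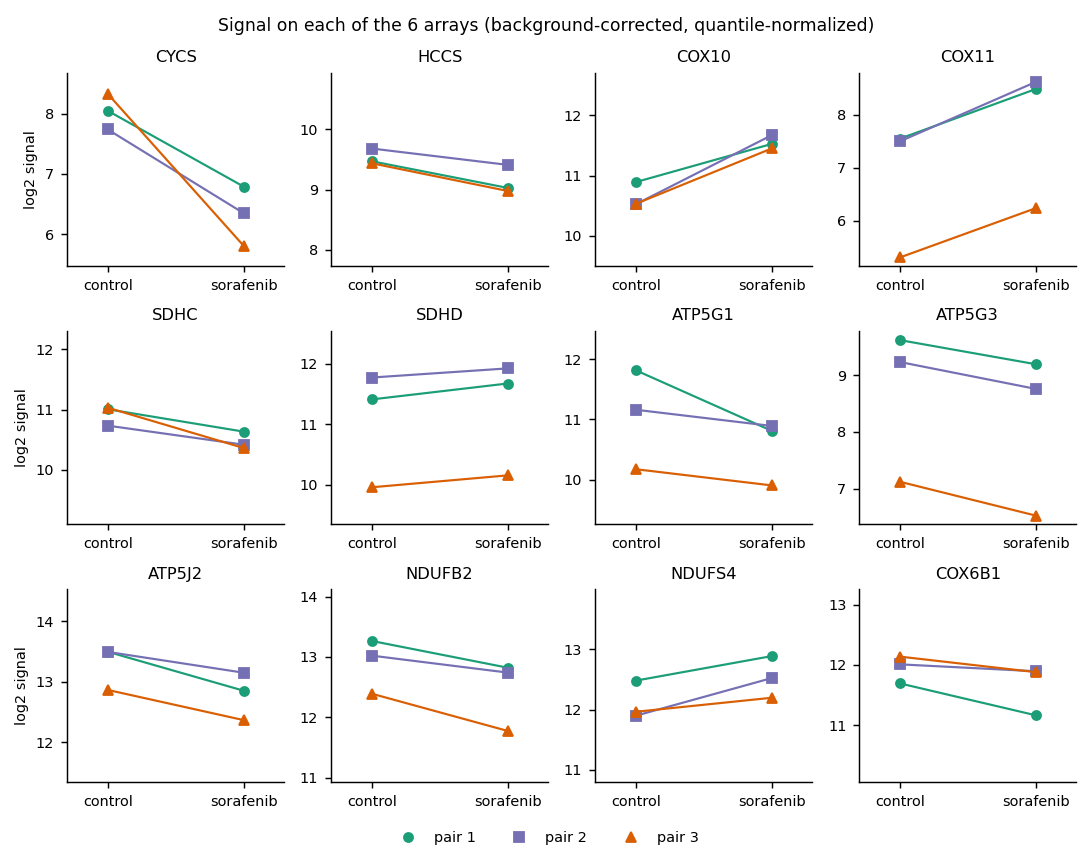
Log2 signal on each control and sorafenib array for 8 genes of complexes I, II, IV and V, for CYCS and for HCCS, COX10 and COX11, with a line joining the arrays of each pair. CYCS falls and COX10 rises in every pair, and the lines of pair 3 lie apart for SDHD, ATP5G3 and COX11.

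In the other lists, 4 of 7 tested genes of complex I assembly were higher in all pairs and 0 were lower, with a median of 0.22. TMEM126B, an assembly factor of the membrane arm, was at 0.49 ± 0.19 (adjusted p = 0.116 in limma's paired trended fit). Of 4 genes of complex III assembly, LYRM7, which guides the Rieske protein, had a difference of -0.73 ± 0.43 (adjusted p = 0.116). Of 2 genes of complex II assembly, SDHAF1 was higher in each pair at 0.39 ± 0.27 and SDHAF2 lower at -0.39 ± 0.10. The 4 genes of ATP synthase assembly and inhibition had a median of -0.30, with ATPAF1 and TMEM70 lower in each pair at -0.48 ± 0.23 and -0.34 ± 0.24.

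The list of coenzyme Q synthesis also holds COQ10A and COQ10B, whose products bind coenzyme Q and do not make it. It had 10 tested genes with a median of 0.34, and every pair pointed up for 3 and down for 1. By pair the median was 0.32 and 0.60 in pairs 1 and 2 and -0.0033 in pair 3. None of the 10 was called on all 6 arrays. In limma's paired trended fit 4 had an unadjusted p under 0.05, as had 2920 of all 14641 tested symbols. Without pair 3 that fit called 3 as higher (COQ5, COQ10A and COQ10B), and 642 of all tested symbols. PDSS2, which helps make the tail of coenzyme Q, was at 0.63 ± 0.11 (adjusted p = 0.0957 in limma's paired trended fit). The 15 tested genes of the tricarboxylic acid cycle and of pyruvate dehydrogenase, which feeds it, had a median of 0.08. In all pairs 4 of them were higher and 3 lower, namely IDH3A and the pyruvate dehydrogenase genes PDHB and DLAT. DLAT, a subunit of pyruvate dehydrogenase, had the lowest mean among them at -0.45 ± 0.02. Among 10 regulators of mitochondrial biogenesis, 9 were mixed, and PPARGC1A, the coactivator PGC-1alpha, ranged widely over pairs at 0.97 ± 0.99. PPARGC1A was not detected on either array of pair 2, so its value there rests on signals at background. Its level on arrays numbered 3 was above that on the others by a shift of 3.92. The 12 mitochondrial chaperones and proteases had a median of 0.07, and the protease LONP1 was higher in each pair at 0.46 ± 0.28.

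Several of these values were smaller under the all-symbol background, and others were larger. The median was then 0.040 for complex I assembly, -0.059 for ATP synthase assembly and inhibition, 0.18 for coenzyme Q synthesis and -0.015 for cytochrome c attachment and caspase activation. For complex IV assembly it was -0.055, and for mitochondrial chaperones and proteases 0.049. Among single genes, the mean was then -0.25 for LYRM7, -0.033 for TMEM70, 0.42 for PDSS2, -0.30 for DLAT, 0.38 for PPARGC1A and -0.028 for APAF1. It was larger in size for COX10 (1.18), TMEM126B (0.64), LONP1 (0.63) and SDHAF2 (-0.49). Among members it was larger in size for ATP5G1 (-0.64), ATP5J2 (-0.57) and NDUFB2 (-0.54), and smaller for CYCS and ATP5G3.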

How the data were processed

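The values are intensities that the authors deposited without normalization, as 1 file per group that holds a value for each symbol on each array. Per the file headers, each intensity is followed by a detection p-value. How probes were combined and which scanner software was used is not given in the sources used here. Both tables were joined by symbol. Background was corrected by the neqc method (offset 16) of limma 3.58.1 in R 4.3.3, with its mean and SD estimated from 27247 symbols whose detection p-values were whole multiples of 1/770 (tolerance 0.001), followed by quantile normalization and log2. The detection filter (p under 0.05, 3 or more of 6 arrays) left 14641 symbols to test. Detected symbols per array numbered 13195 to 15227, and the number of arrays limits the precision.

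Limma's linear model with empirical Bayes (two-sided, Benjamini-Hochberg) held the group alone. Arrays of the same number deviated together from their group means (correlations of 0.904, 0.791 and 0.926), which is why arrays of a number are treated as pairs. The paired trended fit adds the replicate block, a variance trend and robust estimation. Alternatives were background, offset, scaling, filter, array weights, variance model and left-out arrays or pairs. Leaving out each pair in the paired trended fit, and that fit with the background from all symbols, were added after seeing the data.

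Members and lists were chosen with earlier results of these data known. Named were CYCS, CYC1, the SDH genes, up to 3 members per complex and direction with the largest mean among those in one direction in all pairs, members called by any fit, and paired isoforms. Any further gene was picked with its values known. The table of log2 values that the authors also deposited was not used here. Of the members, 70 had a current symbol in the RefSeq table and 22 an older one. One gene of the pathway lists is not reported here.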

Additional observations from a re-analysis of the deposited data

How the results depend on the processing

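The number of members called was 0 in the fit with the group alone and in every alternative without the replicate block. With the replicate block it was 0, and 1 with the block, a variance trend and robust estimation. Without replicate 3 it was 1 with the block, where 320 symbols were called in all. It was 4 with the block, trend and robust estimation, where 1375 were. Under the all-symbol background, the trended fit on all 6 arrays called 0 members and 0 of all symbols. At an unadjusted p under 0.05 it had 11 members and 2487 symbols in all. The difference of CYCS was -1.72 with the block, trend and robust estimation (adjusted p = 0.0409), and -1.32 without replicate 3, with an adjusted p of 0.0283 in the block fit and 0.00258 with trend and robust estimation added. Its direction was the same in every alternative in which it was tested, which leaves out the filter of detection on all 6 arrays, from -1.96 to -0.14.

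The median of complex I was -0.027 under the all-symbol background. Leaving out 1 array or 1 pair in turn, without the block, gave medians of -0.16 to 0.11 for complex I, -0.37 to 0.30 for complex II, -0.049 to 0.13 for complex III, -0.18 to 0.12 for complex IV and -0.32 to 0.10 for complex V. A left-out array leaves its partner unmatched, so these values hold part of the difference between replicate numbers. Subunits lower in all 3 pairs numbered 23 to 25 and those higher 12 over the background, offset and scaling alternatives.

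Directions of 13 named members turned when a single array was left out in a fit without the block, which leaves its partner unmatched. CYC1 ranged from -0.062 to 0.41, SDHA from -0.42 to 0.39, COX7A2 from -0.37 to 0.19, COX8A from -0.18 to 0.27 and NDUFA4 from -0.21 to 0.015. The others had the same direction in all pairs, so a left-out pair cannot turn their mean. SDHD ranged from -0.34 to 0.75, NDUFA13 from -0.85 to 0.097, NDUFS7 from -0.10 to 0.47 and COX5A from -0.28 to 0.53. COX5B ranged from -0.11 to 0.14, ATP5G3 from -1.26 to 0.32, ATP5E from -0.12 to 0.53 and ATP5F1 from -0.061 to 0.20. SDHA also turned with array weights (-0.075), with the background from all symbols (-0.0084, also with block, trend and robust estimation) and without replicate 3 in the block fits (-0.075). COX8A turned in the trended block fit without replicate 2 (-0.018) and in both block fits without replicate 3 (-0.016), and COX5B with median scaling (-0.0049). Turns with a left-out array hold part of the difference between replicate numbers, and the cause of the other turns was not tested. Dim symbols such as CYCS are limited by their signal over background.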
